A study of Mus musculus with 7 samples.

Results

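The respiratory chain complexes II, III and IV and the ATP synthase, complex V, are built largely from proteins encoded in the nucleus, and the genes for these proteins are described here in mouse pancreatic islets. The genes were found by symbol: Sdha, Sdhb, Sdhc, Sdhd and Cyc1, and every symbol that starts with Uqcr, Atp5, Cox4, Cox5, Cox6, Cox7 or Cox8. This gave 48 of the 25793 gene symbols on the array, after 1 pseudogene was left out, and they were carried by 55 of 34351 annotated probe sets. For the 7 genes with several probe sets the one with the highest mean over all pools was used. Complex II had 4 genes, complex III 9, complex IV 18 and complex V 17. Each of the 48 matched 1 gene of RefSeq, on 18 chromosomes in all, and 3 carry another symbol there (Atp5f1 is Atp5pb, Atp5s is Dmac2l and Atp5sl is Dmac2).

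Islet RNA of 2 strains on the NOD background was compared. NOD-Rag1-/- mice carry the Rag1tm1Mom knockout, which prevents V(D)J recombination, and so have no mature T or B cells; there were 3 pools. NOD.ALRc8(D8Mit293-D8Mit137) mice, called congenic here, have intact Rag1 and carry a segment of Chr 8 from the ALR strain between these markers; there were 4 pools. Each pool held about 200 islets of 2 mice, the mice were 10 to 12 weeks old, no treatment is named, and each pool was hybridised to 1 Affymetrix Mouse Gene 2.0 ST array. Alleles of Chr 8 and the loss of Rag1 differ between the strains together, so they cannot be told apart, and whole islets mix endocrine cells with vascular, exocrine and immune cells. Pools are listed below in the order of their replicate numbers, values are log2 intensities made with RMA, and differences are congenic minus NOD-Rag1-/- on the log2 scale.

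Complex II, succinate dehydrogenase, passes electrons from the citric acid cycle to ubiquinone, complex III carries them on to cytochrome c, and complex IV, cytochrome c oxidase, hands them to oxygen. The proton gradient that complexes III and IV build is used by complex V to make ATP. In beta cells the ATP made from glucose closes potassium channels and so couples glucose to insulin release, and complex IV exists with different isoforms of some subunits in different tissues.

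The distribution of array values, the sex-linked genes Xist and Ddx3y and the cell type markers differed between pools. Correlations across probe sets were 0.984 to 0.993 within NOD-Rag1-/-, 0.976 to 0.986 within the congenic strain and 0.965 to 0.981 between strains. By the lower quartile of all values the arrays formed a set of 3 (NOD-Rag1-/- replicates 2 and 3 and congenic replicate 1, at 2.49 to 2.50) and a set of 4 (NOD-Rag1-/- replicate 1 and congenic replicates 2 to 4, at 2.64 to 2.68), a split that the labels do not name. NOD-Rag1-/- replicate 1 alone lacked Xist signal (2.56 against 9.69 to 10.28) and alone had Ddx3y (6.25 against 1.99 to 2.08), which is the pattern of males, so sex cannot be told apart from strain within the set of 4. The 9 beta cell markers listed had medians of 9.66 to 10.69 in NOD-Rag1-/- pools and 9.21 to 10.59 in congenic pools. The 13 acinar markers had medians of 3.99 to 8.04 against 8.54 to 11.39, and 10 of the 13 did not overlap between strains. The 8 T cell markers, which did not overlap in 8 of 8 cases, had medians of 3.71 to 4.43 against 5.09 to 6.30. All of these markers without overlap were higher in congenic pools, as were 1522 of all 34351 probe sets and 1003 of the 17176 brighter than the median.

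Most genes of complexes II to V had lower means in congenic islets, and the pools of the strains overlapped for all but Uqcrfs1 and Atp5h. No gene passed an adjusted p of 0.05 in limma (0 of 48; 0.157% of all probe sets did). The smallest adjusted p was 0.440, for Cox6a2. At an unadjusted p of at most 0.05, 4 genes were lower (Sdhb, Uqcrq, Cox6a1 and Cox6a2) and 0 were higher, where 3.86% of all probe sets were lower and 5.62% higher. Among probe sets brighter than the median, which include 40 of the 48 genes, 7.05% were lower and 7.43% higher at this p, so that 4 of 48 is near the share of bright probe sets. With a difference beyond 0.5 in size added, the threshold of the methods, only Sdhb of the 48 was left, against 1.78% of all probe sets and 3.34% of the brighter ones that were lower by this threshold. A negative difference was found in 36 of 48 genes (75%), against 44.9% of all probe sets and 55.4% of those brighter than the median. The median difference over the 48 genes was -0.13, with 0.02 over all probe sets and -0.03 over those brighter than the median. By complex the median was -0.09 for complex II, -0.26 for complex III, -0.12 for complex IV and -0.11 for complex V. The strains did not overlap for Uqcrfs1 and Atp5h, both lower in every congenic pool, and 2.74% of all probe sets and 4.93% of the brighter ones were lower in this way. In RNA of whole islets, fewer cells of a type cannot be told apart from less RNA per cell.

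**Figure D1:**
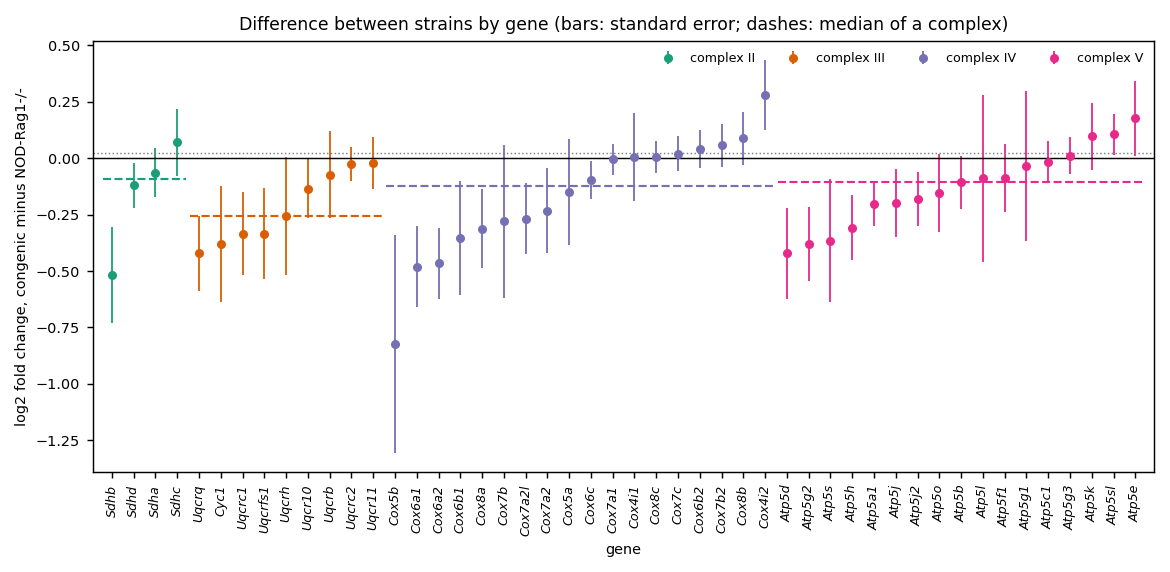
Log2 difference (congenic minus NOD-Rag1-/-, 4 and 3 pools) of each of the 48 genes, sorted within complexes; points are limma estimates, bars are standard errors, dashed lines are complex medians and the dotted line is the median of all probe sets, 0.02. All 9 complex III genes lie below 0, and the range is -0.82 (Cox5b) to 0.28 (Cox4i2).

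The count at the threshold of the methods depended on single pools. It was 1 with all pools, 4 without NOD-Rag1-/- replicate 1, 0 without its replicate 2 or 3, 7 without congenic replicate 1, 0 without congenic replicate 2 or 4, and 2 without congenic replicate 3. All of these were lower. The share of all probe sets that were lower at this threshold moved in the same way, from 1.78% with all pools to 2.50% without NOD-Rag1-/- replicate 1 and 4.02% without congenic replicate 1 (7.66% of the brighter ones), 1.61% without congenic replicate 3, and 0.754% to 0.984% without any other pool. The 7 were Sdhb, Cyc1, Uqcrq, Cox5b, Cox6a1, Cox6a2 and Cox6b1. The count of genes with a negative difference moved less, from 33 to 38, and the median difference over the 48 genes moved from -0.18 to -0.11. Centring each array on its median shifts the difference of every probe set on the array by the same -0.12. After it 46 of 48 genes were negative with a median of -0.25, and quantile normalization gave 38 with a median of -0.16. The shares of all probe sets that were negative under these scalings are not given here, so these counts do not single out the 48 genes.

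In complex II, which has no subunit encoded in mitochondrial DNA, Sdhb differed most. Sdhb is the iron-sulfur subunit that relays electrons inside the complex. It was 7.24, 7.41 and 7.46 in NOD-Rag1-/- pools and 7.37, 6.91, 6.69 and 6.44 in congenic pools. Congenic replicates 2, 3 and 4 were below every NOD-Rag1-/- pool, while congenic replicate 1 lay above NOD-Rag1-/- replicate 1. The means were 7.37 ± 0.12 (SD, n = 3) and 6.85 ± 0.40 (SD, n = 4), a 1.43-fold lower congenic mean with a difference of -0.52 (standard error 0.21, adjusted p = 0.517 in limma). An exact two-sided permutation of the pools gave p = 0.0857, where 0.0286 is the smallest p that 35 splits allow. Sdha, the flavoprotein that oxidises succinate, was 9.28, 9.30 and 9.30 against 9.28, 9.38, 9.27 and 8.99, so that congenic replicate 4 stood below pools that were otherwise close together. Its difference was -0.07 (standard error 0.11). The membrane anchors that bind ubiquinone, Sdhc and Sdhd, differed by 0.07 and -0.12, and a second, dimmer probe set of Sdhd at the same gene had the opposite sign, 0.10. Sdhc was 7.29, 7.46 and 7.41 against 7.48, 7.09, 7.66 and 7.60, with congenic pools on both sides of the NOD-Rag1-/- range.

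The promoters of genes with an unadjusted p of at most 0.05 or with strains that did not overlap are shown where RefSeq (GRCm38.p6) holds an entry, as 250 bases before to 50 after the gene's start, with capitals for motifs of factors known to bind promoters of respiratory genes. The motifs searched on both strands were the palindromic consensus of NRF1, by name only, CCGGAAG (ETS factors, which include GABPA) and AAGATGGCG (YY1), and no matched letters were shared between motifs in the windows shown. The Sdhb promoter, chr4:140961021-140961320 on the plus strand, holds the ETS letters from base 257 of the window, after the start.
Sdhb: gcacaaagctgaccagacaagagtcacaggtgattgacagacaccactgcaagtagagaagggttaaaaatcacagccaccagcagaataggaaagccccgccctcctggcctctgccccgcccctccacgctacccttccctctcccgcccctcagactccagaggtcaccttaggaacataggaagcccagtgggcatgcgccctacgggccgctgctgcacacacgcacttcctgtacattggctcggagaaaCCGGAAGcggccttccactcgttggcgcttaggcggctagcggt

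Entries were found for 37 of the 48 genes. The other 11 are Sdhc, Cyc1, Uqcrb, Uqcrc2, Uqcrq, Cox4i1, Cox4i2, Cox6a2, Cox6c, Cox8c and Atp5a1. The NRF1 letters occurred in 10 of the 37 windows (27.0%), against 5.19% of the windows of 27025 genes. The ETS letters occurred in 12 (32.4%, against 9.93%) and the YY1 letters in 3 (8.11%, against 1.64%), and 20 windows held at least 1 of the motifs (54.1%, against 15.1%). The median difference between strains was -0.14 for genes with the NRF1 letters and -0.15 for those without, -0.23 and -0.14 for the ETS letters, and -0.18 and -0.14 for the YY1 letters, with no test of these gaps. A match describes letters and not binding.

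In complex III every gene had a negative difference (9 of 9), though 0 passed the adjusted test in limma and only Uqcrq had an unadjusted p of at most 0.05. Uqcrq is a small accessory subunit. It was 4.85, 5.32 and 5.07 in NOD-Rag1-/- pools and 4.98, 4.71, 4.46 and 4.50 in congenic pools, with congenic replicate 1 alone inside the NOD-Rag1-/- range. The difference was -0.42 (standard error 0.17, adjusted p = 0.499 in limma), and the exact permutation p was 0.0857. Cyc1, the heme protein cytochrome c1 that hands electrons to cytochrome c, was 6.76, 7.43 and 7.32 against 7.31, 6.81, 6.71 and 6.32. NOD-Rag1-/- replicate 1 was thus among the low pools of Cyc1 and congenic replicate 1 among the high ones. Its difference was -0.38 (standard error 0.26).

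Uqcrfs1, the Rieske iron-sulfur protein, was 6.11, 5.92 and 6.07 in NOD-Rag1-/- pools and 5.84, 5.14, 5.90 and 5.92 in congenic pools. Every congenic pool was below every NOD-Rag1-/- pool, but congenic replicates 3 and 4 lay just under NOD-Rag1-/- replicate 2, and congenic replicate 2 stood far below the rest. The difference was -0.33 (standard error 0.20, adjusted p = 0.618 in limma, exact permutation p = 0.114), and it was -0.15 without congenic replicate 2. Its promoter, chr13:30545267-30545566 on the minus strand, is shown because it is the only complex III gene with strains that did not overlap. None of the 3 motifs was found in it.
Uqcrfs1: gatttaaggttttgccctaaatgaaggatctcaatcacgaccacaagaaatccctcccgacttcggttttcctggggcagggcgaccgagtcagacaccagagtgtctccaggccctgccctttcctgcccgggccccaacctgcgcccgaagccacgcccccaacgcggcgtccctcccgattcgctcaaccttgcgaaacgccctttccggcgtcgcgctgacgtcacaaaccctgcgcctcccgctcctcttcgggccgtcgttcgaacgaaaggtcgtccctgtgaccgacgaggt

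The core proteins Uqcrc1 and Uqcrc2 differed by -0.33 and -0.03. Uqcrh, the hinge protein that helps cytochrome c1 meet cytochrome c, differed by -0.26, and the small subunits Uqcr10, Uqcrb and Uqcr11 by -0.14, -0.07 and -0.02. Uqcr11 was 6.19 in each NOD-Rag1-/- pool and 5.92, 6.19, 6.37 and 6.21 in congenic pools, so congenic pools stood on both sides. The complex III median was -0.08 without congenic replicate 4, which was the lowest pool for 4 of the 9 genes, and it stayed negative without any other single pool, down to -0.38 without congenic replicate 1.

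**Figure D2:**
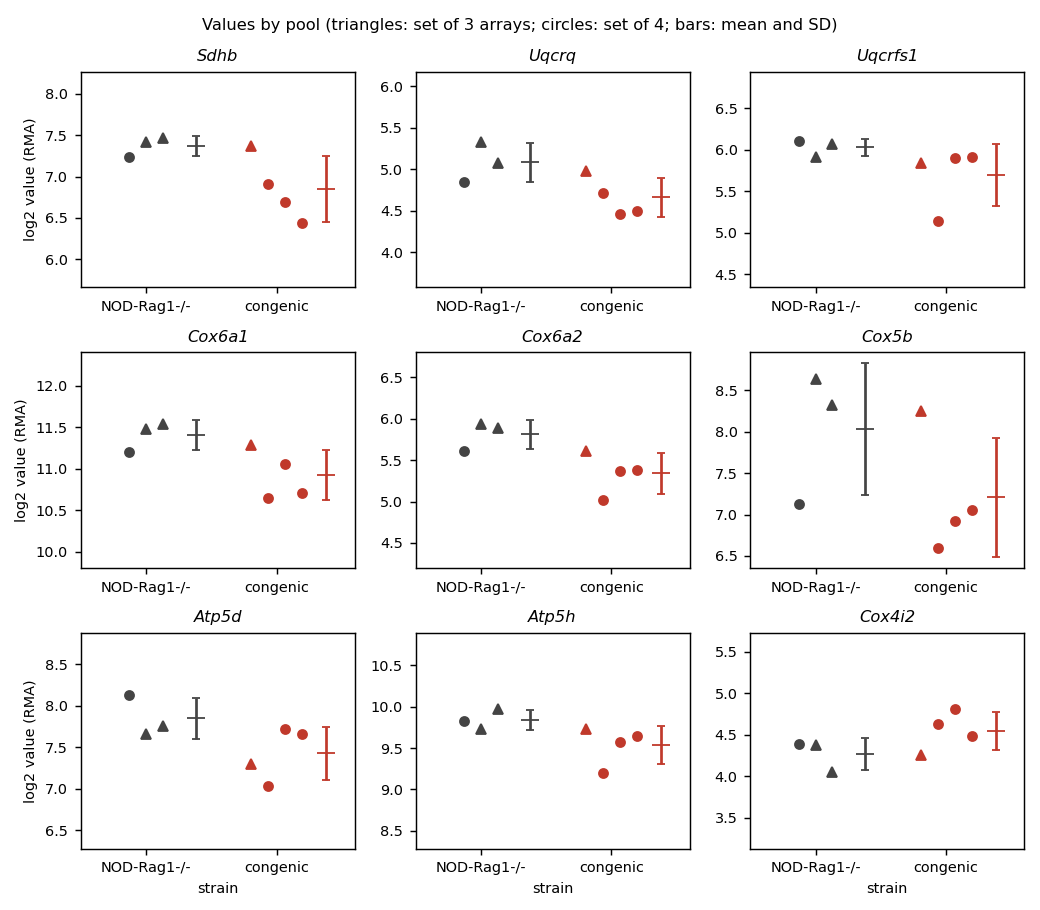
Log2 values by pool of 9 genes with the lowest or highest difference, an unadjusted p of at most 0.05 or strains that do not overlap; triangles are the set of 3 arrays, circles the set of 4, and bars give mean and SD (n = 3 and 4). Uqcrfs1 and Atp5h have no overlap between strains, while Cox5b separates by the sets of arrays, with triangles at 8.25 to 8.63 and circles at 6.60 to 7.13.

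In complex IV, 11 of 18 genes had a negative difference, and 2 had an unadjusted p of at most 0.05, Cox6a1 and Cox6a2. Some of the 18 are isoforms known from heart, muscle, lung or testis, and among the structural subunits without these the median was -0.26. Cox6a1, the widely expressed form of subunit 6A, was 11.20, 11.48 and 11.54 in NOD-Rag1-/- pools and 11.29, 10.65, 11.06 and 10.70 in congenic pools. Congenic replicates 2 to 4 were below every NOD-Rag1-/- pool and congenic replicate 1 was between them. The means were 11.41 ± 0.18 (SD, n = 3) and 10.93 ± 0.31 (SD, n = 4), a difference of -0.48 (standard error 0.18, adjusted p = 0.486 in limma). Its exact permutation p was 0.114. The promoter of Cox6a1, chr5:115348909-115349208 on the minus strand, holds the NRF1 letters from bases 89 and 134 and the ETS letters on the other strand from base 235.
Cox6a1: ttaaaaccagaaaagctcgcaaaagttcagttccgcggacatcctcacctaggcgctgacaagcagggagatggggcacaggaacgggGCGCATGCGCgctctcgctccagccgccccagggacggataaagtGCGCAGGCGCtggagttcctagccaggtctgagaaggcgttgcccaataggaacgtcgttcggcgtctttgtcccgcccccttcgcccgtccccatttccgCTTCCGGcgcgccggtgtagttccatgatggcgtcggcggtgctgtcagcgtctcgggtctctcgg

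Cox6a2, the heart and muscle form of subunit 6A, had the smallest p of the 48. It was 5.61, 5.93 and 5.89 in NOD-Rag1-/- pools and 5.61, 5.01, 5.37 and 5.38 in congenic pools. No congenic pool was above a NOD-Rag1-/- pool, and replicate 1 of both strains held the same value. The means were 5.81 ± 0.17 (SD, n = 3) and 5.34 ± 0.25 (SD, n = 4), a difference of -0.47 (standard error 0.16, unadjusted p = 0.0198 and adjusted p = 0.440 in limma). Its exact permutation p was 0.0857. Both forms of subunit 6A therefore had lower congenic means. The 5 muscle and brown fat markers, among them Myh6 and Ucp1, had a median difference of 0.14, and the strains overlapped for all 5.

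Subunit 4 takes part in the slowing of the enzyme by ATP and has a common and a lung form. Cox4i2, the lung form, was 4.39, 4.37 and 4.05 in NOD-Rag1-/- pools and 4.26, 4.63, 4.81 and 4.49 in congenic pools, with congenic replicate 1 inside the NOD-Rag1-/- range and the others above it. Its difference was 0.28 (standard error 0.15, adjusted p = 0.596 in limma), the highest of the 48. Cox4i1, the common form, was 8.43, 8.10 and 8.22 against 8.22, 8.75, 8.04 and 8.001, and its difference was 0.00. Congenic replicate 2 was the highest pool for Cox4i1 and replicates 3 and 4 the lowest. Cox4i1 is the only one of the 48 on Chr 8, at chr8:120668290-120674209 (GRCm38), which is distal to the congenic segment by the marker positions of the methods. None of the 48 lay inside that segment, and the nearest of the 4 on Chr 2, Atp5g3, was 27.7 Mb away from Rag1.

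Cox5a, a nuclear subunit on the matrix side, was 7.51, 8.07 and 7.90 in NOD-Rag1-/- pools and 8.17, 7.65, 7.22 and 7.67 in congenic pools. The highest pool was congenic replicate 1 and the lowest congenic replicate 3, and the difference was -0.15 (standard error 0.23). Cox6b1, on the intermembrane side, was 7.86, 8.26 and 8.07 against 8.37, 7.44, 7.36 and 7.66. Congenic replicate 1 was again the highest pool and the other congenic pools were the lowest, with a difference of -0.35 (standard error 0.25). The testis form Cox6b2 was 4.01, 3.86 and 3.93 against 3.93, 3.96, 4.08 and 3.93, a difference of 0.04, and the ranges of the strains overlapped in part.

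Cox7a2, the liver and common form of subunit 7A, was 8.23, 8.43 and 8.32 against 8.47, 8.26, 7.97 and 7.67, with congenic replicates 3 and 4 below and replicate 1 above all NOD-Rag1-/- pools. Its difference was -0.23 (standard error 0.19). The muscle form Cox7a1 was 3.87 in all pools, to the second decimal, and it had equal values in 5 of 7. Cox7b was 3.40, 3.60 and 3.03 against 3.58, 2.18, 3.43 and 3.05. Its difference of -0.28 rested on congenic replicate 2, without which it was 0.01. The testis form Cox7b2 was 1.46 to 1.51 in NOD-Rag1-/- pools and in congenic replicates 1 to 3 and 1.74 in congenic replicate 4, a difference of 0.06. Cox7a2l, which joins complexes III and IV into supercomplexes, differed by -0.27, and Cox7c and Cox6c by 0.02 and -0.10.

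Cox8a, the common form of subunit 8, was 9.46, 9.66 and 9.79 in NOD-Rag1-/- pools and 9.59, 8.91, 9.46 and 9.34 in congenic pools. Congenic replicates 2 to 4 were below every NOD-Rag1-/- pool, replicate 3 only past the second decimal, and the difference was -0.31 (standard error 0.17, adjusted p = 0.598 in limma). The muscle form Cox8b was 2.56, 2.65 and 2.64 against 2.51, 2.93, 2.60 and 2.78, a difference of 0.09. The testis form Cox8c stayed at 1.84 to 1.87 in all pools. Of the 48 genes, 8 were dimmer than the median probe set of these arrays, among them Cox7a1, Cox6b2, Cox7b2, Cox8b and Cox8c but also the common subunits Cox7b and Cox7c. Brightness depends on the probes as well as on the RNA. The 8 dim genes had a median difference of 0.01 (3 negative) and the 40 brighter ones -0.15 (33 negative), and 10 of the 48 had equal values in at least 3 pools.

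The lowest difference of the 48 was that of Cox5b, a zinc-binding subunit, and it followed the sets of arrays. Cox5b was 7.13, 8.63 and 8.32 in NOD-Rag1-/- pools and 8.25, 6.60, 6.92 and 7.06 in congenic pools. All pools of the set of 3 arrays were at 8.25 or above and all pools of the set of 4 at 7.13 or below, a difference of 1.47 between the means of the sets. Between strains it was -0.82 (standard error 0.48, adjusted p = 0.613 in limma), but -0.27 within the set of 4 arrays and -0.23 within the set of 3.

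The probe set used for Cox5b also does not lie at the gene. It is at chr13:21501029-21501418 (GRCm38), whereas Cox5b is on Chr 1, and the probe set on Chr 1 was dim, at 3.43, 3.33 and 2.86 against 3.09, 3.84, 3.33 and 2.81, with a difference of 0.06. The same held for 3 other genes, so that 44 of 48 brightest probe sets were at the gene's own place. For Uqcrb the probe set used is at chr5:137615627-137616092 and the gene on Chr 13, with a difference of -0.07 against -0.44 at the gene. For Atp5h it is at chr15:5120602-5121172 and the gene on Chr 11, with -0.31 against -0.15. For Atp5g2 it is at chr17:5816054-5816700 and the gene on Chr 15, with -0.38 against -0.43, and there both probe sets were bright and moved alike over the pools. Which transcripts these 4 probe sets detect was not tested. With the probe sets at the genes' own places, 35 of 48 differences were negative.

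**Figure D3:**
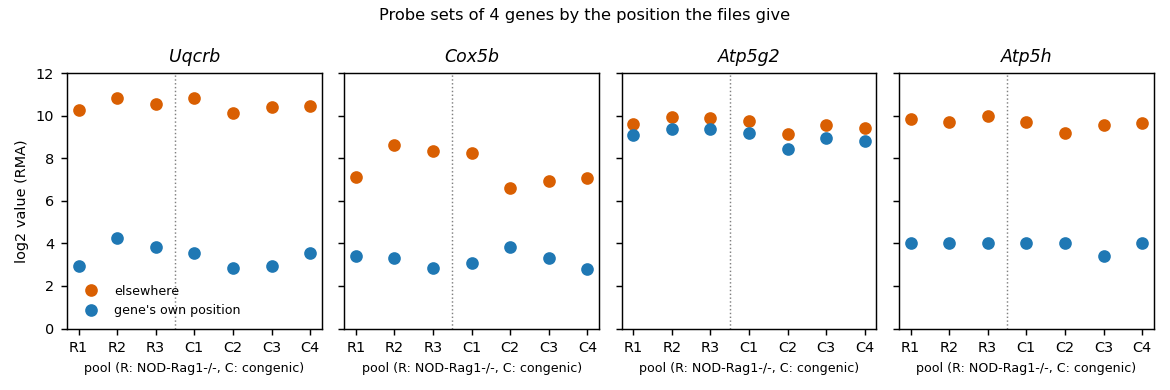
Log2 values by pool (R, NOD-Rag1-/- replicates; C, congenic replicates) of both probe sets of the 4 genes whose brighter probe set lies away from the gene. The probe set at the gene's own place is between 2.81 and 4.26 for Uqcrb, Cox5b and Atp5h and between 8.46 and 9.40 for Atp5g2.

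In complex V, 13 of 17 genes had a negative difference, and 0 had an unadjusted p of at most 0.05. The catalytic head is made of alpha and beta subunits. Atp5a1, the alpha subunit, was 10.16, 10.26 and 10.31 in NOD-Rag1-/- pools and 10.16, 10.10, 9.88 and 10.01 in congenic pools. Congenic replicate 1 equalled the lowest NOD-Rag1-/- pool and the others were below it, with a difference of -0.20 (standard error 0.10, adjusted p = 0.557 in limma, exact permutation p = 0.0857). Atp5b, the beta subunit that makes ATP, was 10.84, 11.15 and 10.99 against 11.02, 10.69, 10.89 and 10.96, with all but congenic replicate 2 inside the NOD-Rag1-/- range. Its difference was -0.11 (standard error 0.12).

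The central stalk turns inside that head. Its subunits Atp5c1 (gamma), Atp5d (delta) and Atp5e (epsilon) differed by -0.02, -0.42 and 0.18, the last 2 being the lowest and the highest of complex V. Atp5d was 8.13, 7.66 and 7.76 against 7.29, 7.03, 7.72 and 7.66. Congenic replicates 1 and 2 were below every other pool, and replicates 3 and 4 were level with NOD-Rag1-/- replicates 2 and 3. The standard error was 0.20 and the adjusted p 0.559 in limma, and a second probe set of Atp5d at the same gene differed by -0.55. Atp5e was 7.16, 7.37 and 7.53 against 7.35, 7.90, 7.54 and 7.32, where congenic replicate 2 stood above the other pools, and its second probe set differed by 0.42.

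The outer stalk keeps the head from turning with the rotor. Atp5h, its d subunit, was 9.83, 9.73 and 9.97 in NOD-Rag1-/- pools and 9.73, 9.20, 9.57 and 9.65 in congenic pools. All congenic pools were below all NOD-Rag1-/- pools, but congenic replicate 1 and NOD-Rag1-/- replicate 2 differed only past the second decimal. The difference was -0.31 (standard error 0.14, adjusted p = 0.553 in limma, exact permutation p = 0.0571), read from the probe set on Chr 15. The promoter of the gene on Chr 11, chr11:115419870-115420169 on the minus strand, holds the NRF1 letters from base 110 and the ETS letters on the other strand from base 213.
Atp5h: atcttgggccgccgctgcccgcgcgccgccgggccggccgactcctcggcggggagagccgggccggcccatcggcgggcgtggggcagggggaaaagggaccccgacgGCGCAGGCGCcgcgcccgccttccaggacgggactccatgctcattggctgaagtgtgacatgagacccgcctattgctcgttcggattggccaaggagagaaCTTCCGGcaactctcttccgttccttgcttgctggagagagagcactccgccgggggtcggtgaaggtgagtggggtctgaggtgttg

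The other stalk subunits Atp5f1 (b), Atp5j (F6) and Atp5o (OSCP) differed by -0.09, -0.20 and -0.15. Among genes of the c ring, which turns as protons pass, Atp5g1, Atp5g2 and Atp5g3 differed by -0.04, -0.38 and 0.01. These 3 genes encode the same mature c subunit with different import sequences. The membrane subunits Atp5j2 (f), Atp5k (e) and Atp5l (g) differed by -0.18, 0.10 and -0.09. Atp5l had the widest congenic spread of complex V, with 9.64 in replicate 2 and 7.85 in replicate 4 against 8.88 to 8.99 in NOD-Rag1-/- pools. Atp5s and Atp5sl, which share the start of the symbol but are not core subunits, differed by -0.36 and 0.11.

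The same pools were low or high for many of the genes. The medians over the 48 genes were 6.97, 7.39 and 7.36 in NOD-Rag1-/- pools and 7.32, 6.78, 6.70 and 6.41 in congenic pools. By these medians NOD-Rag1-/- replicate 1 was nearer to congenic replicates 2 and 3, and congenic replicate 1 nearer to NOD-Rag1-/- replicates 2 and 3. Counts of genes above their own mean over all pools placed NOD-Rag1-/- replicate 1 otherwise. It had 29 such genes, nearer to replicates 2 and 3 of its strain (37 and 35) than to congenic replicates 2 and 3 (17 and 19). Congenic replicate 1 had 32. Congenic replicate 2 was the lowest pool for 16 genes and replicate 4 for 12, and NOD-Rag1-/- replicate 2 was the highest pool for 14. In the same order the acinar medians were 3.99, 8.04 and 5.59 against 8.54, 11.39, 10.57 and 9.92, the beta cell medians 10.52, 9.66 and 10.69 against 9.21, 10.36, 10.59 and 10.36, and the endothelial medians 5.36, 6.63 and 5.56 against 6.96, 7.88, 7.92 and 8.08. The beta cell medians were thus lowest in NOD-Rag1-/- replicate 2 and congenic replicate 1. Of the 9 beta cell markers 4 were lower in every pool of the set of 3 arrays, as were 4117 of all 34351 probe sets. Of the 6 endothelial markers 5 were higher in every congenic pool, as were 1522 of all probe sets. The part of the cell mixture in these differences was not tested.

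**Figure D4:**
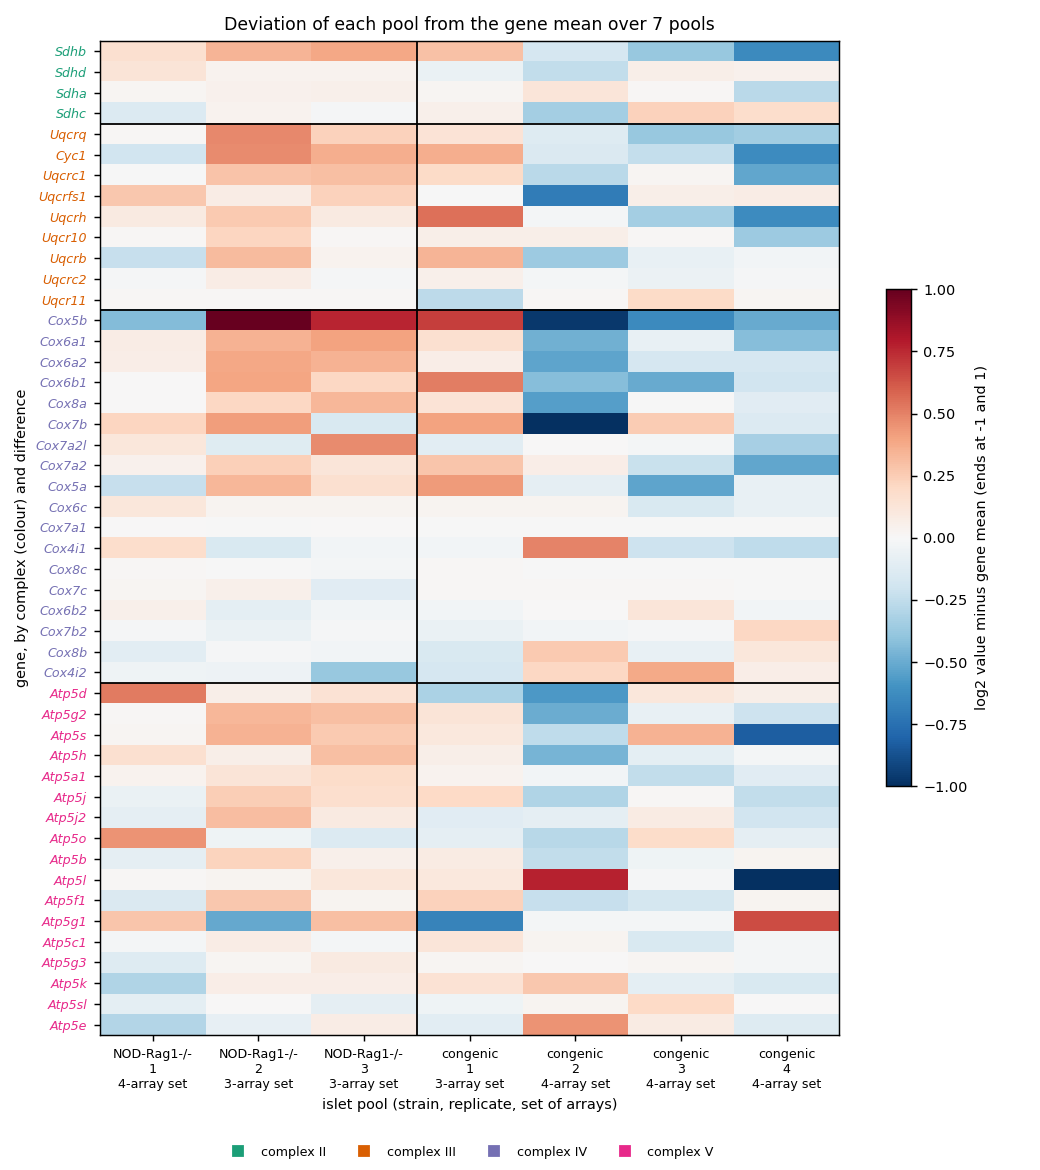
Deviation of each pool from the gene's mean over 7 pools (log2, colour scale ending at -1 and 1) for the 48 genes, grouped by complex and ordered by difference between strains. Congenic replicates 2 and 4 hold the lowest value for 16 and 12 genes. Congenic replicate 1 is above the mean for 32 genes, and NOD-Rag1-/- replicates 1, 2 and 3 for 29, 37 and 35.

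The sets of arrays also separated these genes. Of the 48, 34 had higher means in the set of 3 arrays, against 36.7% of all probe sets and 55.3% of those brighter than the median. In 14 of 48 all 3 pools of that set were above all 4 others, against 6.44% of all probe sets and 12.2% of those brighter than the median, and the reverse was seen for 1 gene, Cox4i2. In either direction the sets did not overlap for 18.4% of all probe sets. The strains, by comparison, separated 2 of the 48. The 14 included Sdhb, Uqcrq, Cyc1, Cox5b, Cox6a1, Cox6b1, Cox8a and Atp5b. The median difference between sets was 0.17.

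Within the set of 4 arrays, where NOD-Rag1-/- replicate 1 meets congenic replicates 2 to 4, 35 of 48 genes were negative with a median of -0.11. There 17137 of all 34351 probe sets were negative, and 9145 of the 17176 brighter than the median, these with a median of -0.02. Within the set of 3, where NOD-Rag1-/- replicates 2 and 3 meet congenic replicate 1, 29 were negative with a median of -0.03. In that set 17690 of all probe sets and 9858 of the brighter ones were negative, the latter with a median of -0.04. The 29 of 48 are thus near the share of bright probe sets. Both differences were negative for 21 genes, both positive for 5, and of opposite sign for 21. The complex IV median turned from -0.17 in the set of 4 to 0.01 in the set of 3. These values have no test. In a fit with the sets as a block, 32 of 48 were negative with a median of -0.09, against 53.1% of all probe sets. Of the 17176 brighter probe sets 9830 were negative in this fit, with a median of -0.03. With this block 0 of the 48 passed an adjusted p of 0.05 in limma (0.0902% of all probe sets). The threshold of the methods was passed as lower by 1 (0.984% of all probe sets and 1.51% of the brighter ones). That gene was Atp5d, at -0.54 (unadjusted p = 0.0339, adjusted p = 0.498 in limma), and Sdhb was at -0.33 in this fit.

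**Figure D5:**
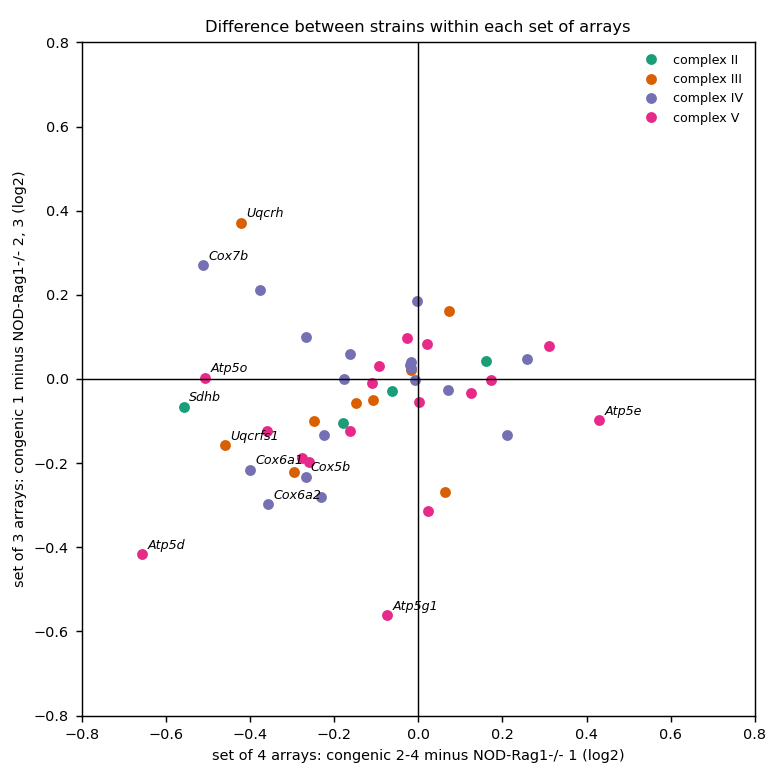
Difference between strains within the set of 4 arrays (x axis, log2) and within the set of 3 arrays (y axis, log2) for the 48 genes, coloured by complex, with selected genes named. The lower left part holds 21 genes, Atp5d farthest from 0 on the x axis, and Uqcrh and Cox7b lie at negative x and positive y.

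Genes that build or feed these complexes were counted as well. Of 42 symbols of assembly factors, some of them second names of the same gene, 32 were measured. Of these 32, 26 had a negative difference, and the median was -0.15. By limma 0 passed an adjusted p of 0.05 and 5 had an unadjusted p of at most 0.05, all lower (3.86% of all probe sets and 7.05% of the brighter ones were). At the threshold of the methods 3 were lower (1.78% of all probe sets were), and these were Cox10, Cox15 and Cox18, named after their values were seen, at -0.65, -0.52 and -0.62. All 3 also separated by the sets of arrays, and with the sets as a block none of them stayed at this threshold, with -0.41, -0.35 and -0.40. Cox10 and Cox15 make heme a for complex IV. The smallest p was that of Lrpprc, which stabilises mitochondrial mRNA. It was 8.45, 8.54 and 8.51 in NOD-Rag1-/- pools and 8.25, 8.09, 8.24 and 8.22 in congenic pools, with no overlap and a difference of -0.30 (adjusted p = 0.320 in limma). Cox20 had the lowest difference, -0.68, but it separated by the sets of arrays and was 0.14 within the set of 3 and -0.16 with the sets as a block. Cox11 had the highest, 0.50, which rested on NOD-Rag1-/- replicate 1, at 2.88 against 4.32 to 4.52 in the other pools, and it was -0.01 without that pool. With the sets as a block Cox11 was the only assembly factor at the threshold of the methods, at 0.79.

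Of 11 regulators of these genes 9 had a negative difference, with a median of -0.11. Nrf1, the factor whose letters were searched in the promoters, was the lowest and had the smallest p. It was 5.77, 6.24 and 5.93 against 5.77, 5.63, 5.17 and 5.04, with congenic replicate 1 level with NOD-Rag1-/- replicate 1 and the others below. The difference was -0.58 (unadjusted p = 0.0278, adjusted p = 0.480 in limma), the only regulator at the threshold of the methods, and it was -0.49 within the set of 4 arrays and -0.31 within the set of 3. With the sets as a block it was -0.41 and no longer at the threshold (unadjusted p = 0.0647, adjusted p = 0.601 in limma). Gabpa was the highest regulator, at 0.09. Cytochrome c, the ubiquinone-linked enzymes and the other carriers (6 genes) had a median of -0.00. Among 3 subunits listed under other symbols, 2010107E04Rik differed by -0.87 and Usmg5 by 0.02. The former separated by the sets of arrays, at 8.29 to 8.49 in the set of 3 and 6.67 to 7.83 in the set of 4, and was 0.15 within the set of 3 and -0.42 with the sets as a block.

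The subunits of complexes III to V that mitochondrial DNA encodes had the opposite sign. All 6 had a positive difference, from 0.10 to 0.14 with a median of 0.13, and 0 passed an adjusted p of 0.05 in limma or an unadjusted p of 0.05. Their values, from 11.94 to 12.83, were near the top of the arrays, and the positions of their probe sets were not checked. COX2, a subunit of complex IV, was 12.10, 12.12 and 11.94 in NOD-Rag1-/- pools and 12.14, 12.24, 12.15 and 12.20 in congenic pools. The strains did not overlap, the difference was 0.13, the adjusted p was 0.636 in limma, and the exact permutation p was 0.0286, the smallest that is possible. Centring the arrays on their medians moves such a difference by -0.12, about its own size. NOD-Rag1-/- replicate 3 was the lowest pool for all 6, and without it the differences were 0.02 (ATP8) to 0.08 (COX3), with 0.07 for COX2. The sets of arrays also separated these 6, of which 0 had a higher mean in the set of 3. For 3 of them (CYTB, ATP6 and ATP8) that set was lower without overlap, as for 4117 of 34351 probe sets and 1640 of the 17176 brighter ones. The median of the 6 was 0.05 within the set of 4, 0.09 within the set of 3 and 0.08 with the sets as a block. Nuclear genes of other mitochondrial lists were on the negative side. The median was -0.16 for 38 genes with symbols of complex I (33 negative) and -0.23 for 74 genes of the mitochondrial ribosome (63 negative). Of all probe sets 44.9% were negative, and 55.4% of the brighter ones. These lists also followed the sets of arrays. Means were higher in the set of 3 for 35 of the 38 and 66 of the 74, against 36.7% of all probe sets and 55.3% of the brighter ones. With the sets as a block the medians were -0.08 and -0.14. Ndufa4 is among the 38 and also among the subunits listed under other symbols above. No test of the difference between these lists was made.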

How the data were processed

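Islet RNA of 3 NOD-Rag1-/- and 4 congenic pools was hybridised to Affymetrix Mouse Gene 2.0 ST arrays. The deposited expression values of each pool are on the log2 scale and came from RMA as run by the authors, that is after background correction, quantile normalization and summary over probes. Neither its version nor its probe set definition is given in the sources used here. The authors' own log2 fold changes and p-values, in a deposited comparison table, were not used, but the gene symbol and GRCm38 position of each probe set were taken from there. Of 34472 probe sets 121 had no annotation, so that 34351 entered the fit. Groups followed the strain in the labels. Separate pools were the replicates, and arrays give no counts, so their number limits the precision.

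Strains were compared in limma 3.58.1 (R 4.3.3, lmFit and eBayes, no block), with Benjamini-Hochberg adjustment over all 34351 probe sets, after the fit had been tested on simulated data. For single genes the pools were also permuted exactly, two-sided, over all 35 splits. Pool values were given for the highest and lowest gene of each complex, genes with an unadjusted p under 0.05 or no overlap, core subunits, tissue-restricted isoforms with their partners, and genes on Chr 8 or within 20 Mb of Rag1. Other genes come from lists of assembly factors, regulators, carriers, other mitochondrial genes and cell type markers, with the highest, the lowest and the smallest p named. The genes and lists were chosen with earlier results of these data known. Alternatives tried were quantile and median scaling of the arrays, only probe sets brighter than the median, and an unpaired t-test and its unequal-variance form. Others were trend and robust fits, array weights, other choices of probe set, and each pool left out. A replicate block and the sets of arrays as a block or apart were tried too. Results were tabulated with pandas 2.3.3 in Python 3.11.15, and plots were drawn with matplotlib 3.10.9.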

Additional observations from a re-analysis of the deposited data

Results flagged for a closer look

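In 4 of the 48 genes 1 congenic pool stood apart from the other 3 by more than Dixon's limit for a group of 4. Chance alone gives this in about 1 of 20 groups. Uqcrfs1 was 5.14 in congenic replicate 2, against 5.84 to 5.92 in the others. Uqcr10 was 3.84 in congenic replicate 4, against 4.21 to 4.26. Cox8c was 1.87 in congenic replicate 1 with the others at 1.85, and Cox7c was 3.26 in congenic replicate 4 with the others at 3.27. In the last 2 genes the other 3 pools held equal values, so a distance in the second decimal was enough. NOD-Rag1-/- has 3 pools and was not examined in this way.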

How the results depend on the processing

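No gene of complexes II to V passed an adjusted p of 0.05 under any alternative with a test. Of 856 values of single genes under such an alternative, 803 kept their direction and 53, of 22 genes, turned. Many of the 803 could not turn. The t-tests, the trend and robust fit and the fit of the brighter probe sets keep the same difference of means. Other choices of probe set leave the 41 genes with 1 probe set as they were. The count of 803 therefore overstates how far directions were tried. The count of genes at the threshold of the methods, 1 as reported, was 2 with quantile normalization, 5 with arrays centred on their medians and 5 with array weights. It was 2 over every probe set, 0 with an unpaired t-test and its unequal-variance form, and 0 to 7 with single pools left out. The shares of all probe sets under the scalings, the array weights and the t-tests are not given here, so those counts do not single out these genes. The complex IV median of -0.12 was -0.24 after centring, -0.27 among probe sets brighter than the median, -0.26 without tissue-restricted isoforms and 0.013 within the set of 3 arrays. The range over single pools left out was -0.18 to -0.11 for the median of the 48 genes.

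Differences turned sign in these cases among alternatives with a test. Centring gave -0.0499 for Sdhc, -0.12 for Cox4i1, -0.0792 for Cox6b2, -0.0631 for Cox7b2, -0.10 for Cox7c, -0.0322 for Cox8b, -0.12 for Cox8c, -0.11 for Atp5g3, -0.0227 for Atp5k and -0.0134 for Atp5sl. Quantile normalization gave 0.00176 for Uqcr11, 0.0303 for Uqcrc2, -0.0775 for Cox6b2, -0.0784 for Cox7c, -0.0493 for Cox8c and -0.0186 for Atp5sl. Array weights gave 0.0145 for Uqcr11, -0.0489 for Atp5g3, -0.0157 for Atp5k and 0.0088 for Atp5o. The sets of arrays as a block gave 0.11 for Uqcrb, 0.000758 for Uqcrc2, -0.0571 for Cox4i1, 0.0857 for Cox5a, 0.0311 for Atp5c1 and 0.0509 for Atp5f1. The probe set at the gene's own place, chosen after seeing the data, gave 0.0585 for Cox5b. With single pools left out the ranges were -0.12 to 0.0151 for Sdha, -0.0863 to 0.0637 for Uqcr11, -0.21 to 0.0654 for Uqcrb, -0.0457 to 0.00256 for Uqcrc2, -0.16 to 0.091 for Cox4i1, -0.32 to 0.00161 for Cox5a, -0.45 to 0.0134 for Cox7b, -0.00528 to 0.0871 for Cox7b2, -0.0307 to 0.0517 for Cox7c, -0.0043 to 0.0133 for Cox8c, -0.0605 to 0.0324 for Atp5c1, -0.18 to 0.0246 for Atp5f1, -0.30 to 0.18 for Atp5g1, -0.0481 to 0.0596 for Atp5g3, -0.0268 to 0.16 for Atp5k, -0.36 to 0.24 for Atp5l and -0.27 to 0.0245 for Atp5o. Within the sets of arrays, which give no test, the sign differed from that over all pools for 9 genes in the set of 4, at 0.0637 for Uqcr11, 0.0741 for Uqcrb, -0.16 for Cox4i1, -0.0204 for Cox6b2, -0.0162 for Cox7c, -0.0172 for Cox8c, 0.0026 for Atp5b, 0.0212 for Atp5f1 and 0.0232 for Atp5j2, and for 16 in the set of 3, at 0.16 for Uqcrb, 0.0216 for Uqcrc2, 0.37 for Uqcrh, 0.19 for Cox5a, 0.21 for Cox6b1, 0.0992 for Cox7a2, 0.27 for Cox7b, -0.0257 for Cox7b2, -0.13 for Cox8b, 0.097 for Atp5c1, -0.0984 for Atp5e, 0.0842 for Atp5f1, -0.0337 for Atp5g3, 0.0312 for Atp5l, 0.00256 for Atp5o and -0.00337 for Atp5sl. The cause of these changes was not tested, apart from centring, which shifts every difference by the same amount.

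Deviations of pools with the same replicate number from their strain means correlated at -0.38, -0.14 and -0.11 across probe sets. Pools with different numbers were not compared in this way, so these values cannot settle whether the numbers pair the pools. The fit with the replicate number as a block left out congenic replicate 4, which has no partner. In it 0 genes passed the threshold of the methods, and the median of the 48 genes was -0.12. Differences turned to 0.0151 for Sdha, -0.00528 for Cox7b2 and 0.24 for Atp5l. Leaving out congenic replicate 4 without any block gave the same count and the same turned values, so these changes do not speak to pairing. Values near background limit the dim isoforms, and 7 pools limit every comparison.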
